A study of Mus musculus with 7 samples.

Results

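The genes described here make nicotinamide adenine dinucleotide (NAD) or spend it, and they were taken from the gene table of brown adipose tissue by name: Nampt, Nmnat1, Nmnat2, Nmnat3, Nmrk1, Nnmt, Nnt, Sirt1, Sirt3 and Cd38. These 10 names matched 11 of the 55487 genes in the table, because Nnt has 2 records. The tissue came from mice of the NOD/ShiLtJ strain, known for its autoimmune diabetes, with blood glucose between 190 and 230 mg/dL when treatment was given. In 4 mice CB-100, the part above 100 kDa of a buffer conditioned by brown adipocytes (imBAT in the labels), was injected under the skin for 7 days at 1.5 mg per kg of body weight. The 3 sham mice are labelled as given KRBH buffer, and their protocol text repeats that of the CB-100 mice, so the sham schedule is not stated. RNA was isolated 2 to 8 weeks later, and the labels give no week, age or time of day for any mouse. All CB-100 titles carry the code nd and all sham titles the code d, which the labels leave undefined, so that whatever the codes mark cannot be told apart from the injection. The comparison asks whether transcript levels in brown fat differ after the large fraction of the conditioned buffer was given. The names were selected on NAD function with the measured fold changes of this same comparison known, so the members' differences and calls below are a description and not support for any pattern.

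NAD carries electrons in fuel oxidation and is also consumed by enzymes that cut it and release nicotinamide. Most tissues rebuild it from that nicotinamide: NAMPT joins nicotinamide to a phosphoribosyl group, and the NMNAT enzymes complete the molecule in the nucleus (NMNAT1), the Golgi and cytosol (NMNAT2) and, for NMNAT3, mitochondria. NNMT takes nicotinamide out of this cycle by methylating it, sirtuins and CD38 spend NAD, and NNT uses the proton gradient of mitochondria to move electrons from NADH to NADP. In brown fat NAD turnover is tied to the high rate of fuel oxidation that produces heat.

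Library totals ran from 10815073 to 28528421 counts. Values are CPM, counts relative to the library total scaled by TMM, a factor that aligns libraries on the bulk of their genes. By Xist and Y-linked genes the third replicate of either group was male and the other 5 mice were female. Ucp1, the uncoupling protein of brown fat, stood at 1402 ± 791 CPM (SD, n = 4) after CB-100 and 354 ± 454 CPM (SD, n = 3) in the sham mice, with overlap and not called (adjusted p = 0.262 by edgeR). Fabp4, expressed by fat cells of every kind, stood at 2237 ± 1103 and 3585 ± 785 CPM. Protein-coding genes held 76.2% to 80.0% of counts with CB-100 and 83.0% to 86.5% in sham, without overlap (exact two-sided permutation p = 0.0571, the smallest that 35 splits allow, BH-adjusted p = 0.114 over 4 measures). The 7SL and 7SK RNAs held 9.54% to 14.4% and 5.89% to 8.35%, also without overlap (the same p values), and mitochondrially encoded genes 26.8% ± 6.44 and 18.8% ± 4.29 (exact permutation p = 0.114, BH-adjusted p = 0.152). CB-100 replicate 4 stood apart with a mitochondrial share of 36.3% and a TMM factor of 0.755, against 0.954 to 1.25 in the other libraries. Skeletal muscle markers summed to 242, 348, 1848 and 369 CPM in CB-100 replicates 1 to 4 and 701, 1555 and 1230 CPM in sham replicates 1 to 3 (exact permutation p = 0.40, BH-adjusted p = 0.40), with 8 of 10 estimates below 0 and a median log2 change of -0.81. The part of the RNA shares in the results below was not tested.

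The transcript of the NAD salvage enzyme Nampt was lower after CB-100, and that of Nnmt, which removes its substrate, was higher. Nampt stood at 143 ± 30.4 CPM (SD, n = 4) with CB-100 and 313 ± 89.4 CPM (SD, n = 3) with sham buffer, a 2.20-fold difference in the fitted model. Nnmt stood at 8.08 ± 1.81 CPM against 2.38 ± 0.82 CPM, a 3.43-fold difference by the same fit. Of 10 tested records, 1 was called higher and 1 lower at an adjusted p of 0.05 over 16823 genes in the quasi-likelihood test of edgeR, against a background of 3.70% called (1.42% higher and 2.28% lower). In 5 of the 10 the 4 CB-100 libraries did not overlap the 3 sham libraries, against 23.3% of all tested genes. DESeq2 called 1 record higher and 2 lower (background 11.7%), limma voom 1 and 1 (7.21%), edgeR at a threshold of 0.1 1 and 2 (11.1%) and edgeR with sex as covariate 1 and 0 (1.41%). Nothing is read from these counts, since the names were chosen in view of this comparison.

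**Figure D1:**
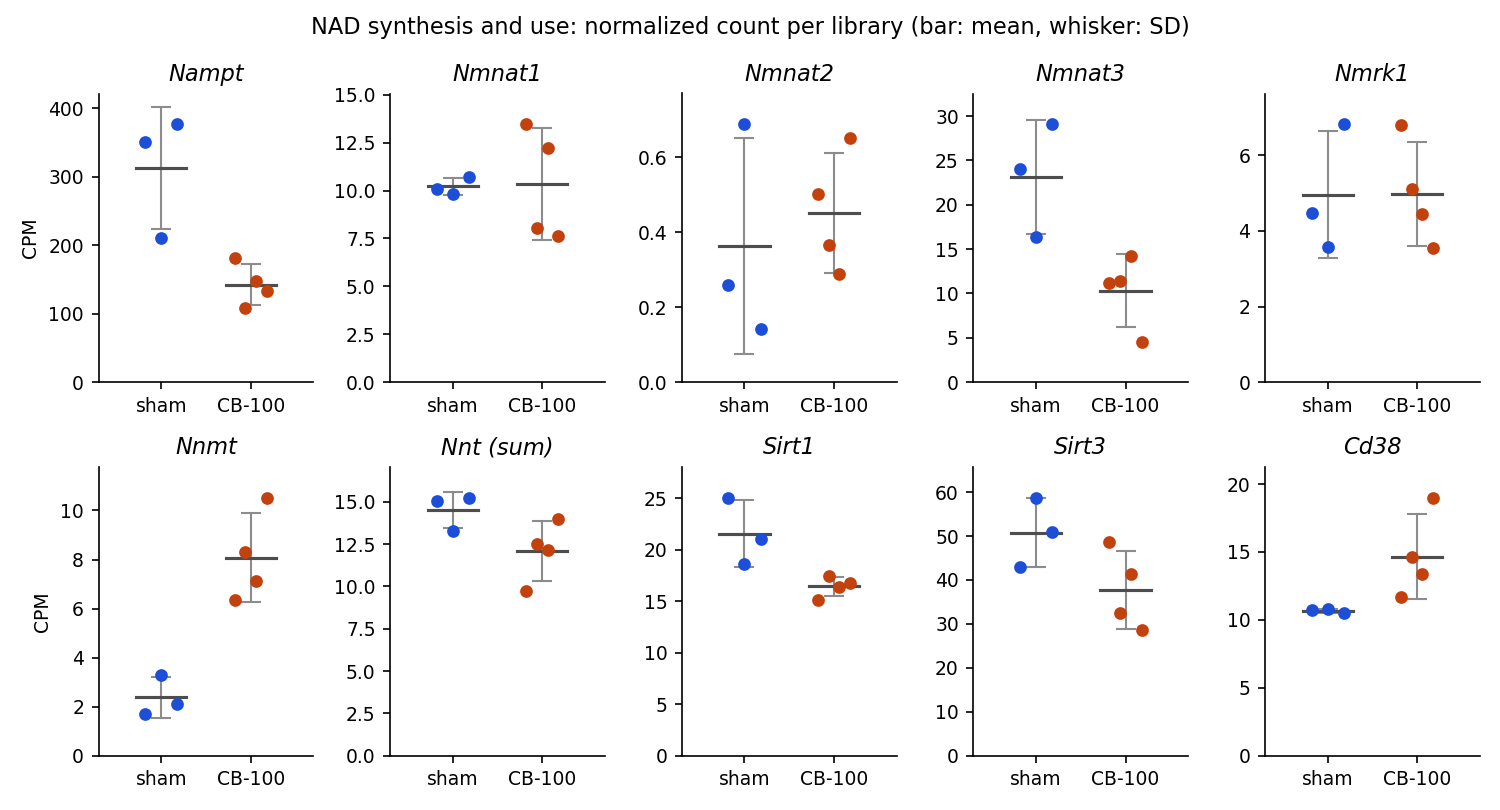
Normalized count (CPM, vertical axis, each panel from 0) of each gene in the 3 sham (blue) and 4 CB-100 (orange) libraries, with 1 point per library, the group mean as a bar and the SD as a whisker; the 2 Nnt records are summed. Nampt with CB-100 lay between 108 and 181 CPM, below every sham library, and Nnmt between 6.37 and 10.5 CPM, above every sham library.

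Nampt, the rate-limiting enzyme of salvage from nicotinamide, lies at chr12:32819545-32853349 on the plus strand of GRCm38. Its level was 181, 108, 147 and 133 CPM in CB-100 replicates 1 to 4 and 351, 211 and 377 CPM in sham replicates 1 to 3. The groups did not overlap, and sham replicate 2 was the sham library nearest to CB-100. The log2 change was -1.13 (SE 0.25, 95% interval -1.69 to -0.57, adjusted p = 0.0451 by edgeR). Nampt stayed called without sham replicate 2 (a log2 change of -1.35, adjusted p = 0.0391 by edgeR) and was not called without CB-100 replicate 1 (-1.27, adjusted p = 0.0626), 2 (-1.02, 0.0994), 3 (-1.15, 0.0784) or 4 (-1.10, 0.0621), or without sham replicate 1 (-1.05, 0.127) or 3 (-0.99, 0.170). In the 5 females alone the estimate was also below 0 and not called (adjusted p = 0.249 by edgeR), and with the skeletal muscle markers as covariate it was -1.20 and not called (adjusted p = 0.170 by edgeR). In bulk tissue, fewer cells of a type and less RNA per cell cannot be told apart. The 11 brown adipocyte markers summed to 3833 to 8010 CPM with CB-100 and 4642 to 7817 CPM with sham buffer, overlapping ranges, with 0 of 11 called in edgeR (2 at an unadjusted p under 0.05, and 1 called by each of DESeq2 and limma voom). That list includes Fabp4, Adipoq and Plin1, which are not particular to brown fat. For this and the marker lists below, 4022 of all 16823 tested genes had an unadjusted p under 0.05 in edgeR. DESeq2 called 11.7% of all tested genes and limma voom 7.21%.

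The promoters of Nampt, Nmnat3 and Sirt1 are shown because these are the 3 members whose CB-100 libraries all lay below the sham libraries. Each sequence is the 250 bases before a RefSeq start on GRCm38.p6, written 5′ to 3′ on the strand of the gene. Capitals mark the GC box GGGCGG, read on both strands (CCGCCC is the same box on the other strand), and the E-box CACGTG, which reads the same on both. E-boxes are bound by the clock proteins CLOCK and BMAL1, and Nampt is a known target of that pair.
Nampt, chr12:32820085-32820334, plus strand: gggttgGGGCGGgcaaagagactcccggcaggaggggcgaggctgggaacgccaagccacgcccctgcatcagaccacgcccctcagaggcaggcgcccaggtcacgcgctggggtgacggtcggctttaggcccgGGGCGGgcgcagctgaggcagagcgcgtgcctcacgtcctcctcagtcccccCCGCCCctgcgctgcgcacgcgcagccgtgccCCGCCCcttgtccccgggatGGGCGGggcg
Nmnat3, chr9:98296320-98296569, plus strand: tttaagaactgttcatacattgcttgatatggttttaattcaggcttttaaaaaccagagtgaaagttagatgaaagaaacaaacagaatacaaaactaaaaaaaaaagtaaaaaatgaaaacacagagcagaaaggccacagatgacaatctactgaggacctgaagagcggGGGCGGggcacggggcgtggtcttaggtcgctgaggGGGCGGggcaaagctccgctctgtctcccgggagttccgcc
Sirt1, chr10:63339036-63339285, minus strand: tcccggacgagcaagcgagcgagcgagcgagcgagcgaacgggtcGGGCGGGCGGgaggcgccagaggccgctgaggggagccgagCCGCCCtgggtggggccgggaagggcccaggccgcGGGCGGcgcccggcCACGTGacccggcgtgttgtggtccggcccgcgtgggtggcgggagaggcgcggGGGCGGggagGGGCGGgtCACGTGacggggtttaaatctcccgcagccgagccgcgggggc
A search of these windows found 5 GC boxes before Nampt, 2 before Nmnat3 and 6 before Sirt1, where the first pair shares bases. The GC box occurred in 32.7% of 32851 promoter windows of this length. The E-box occurred 2 times before Sirt1, 0 times before Nampt and 0 times before Nmnat3, and in 6.02% of all windows. These matches describe letters in a window and say nothing of binding. Of the 10 names, 8 had a promoter in the RefSeq table.

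The 3 NMNAT genes, which act on the product of NAMPT, are given in turn, and the differences between them were not tested. Nmnat3 (chr9:98287435-98420438, plus strand), the mitochondrial form, stood at 11.2, 11.4, 14.2 and 4.51 CPM in CB-100 replicates 1 to 4 and at 24.0, 16.4 and 29.1 CPM in sham replicates 1 to 3. Every CB-100 library lay below every sham library, and CB-100 replicate 4 was the lowest. The means were 10.3 ± 4.10 CPM (SD, n = 4) after CB-100 and 23.1 ± 6.39 CPM (SD, n = 3) in the sham mice. Its log2 change of -1.18 was close to that of Nampt but less precise (SE 0.36, 95% interval -1.99 to -0.37, adjusted p = 0.0952 by edgeR), so that it was not called, whereas DESeq2 called it (adjusted p = 0.0228). Nmnat1 (chr4:149467572-149485202, minus strand), the nuclear form, stood at 13.5, 8.04, 12.2 and 7.63 CPM with CB-100 and at 10.1, 9.82 and 10.7 CPM with sham buffer. The sham libraries lay inside the CB-100 range, and the log2 change was 0.02 with a 95% interval of -0.51 to 0.54 (adjusted p = 0.976 by edgeR). Nmnat2 (chr1:152954993-153119261, plus strand), known mainly from neurons, was near the limit of detection at 0.29 to 0.65 CPM with CB-100 and 0.14 to 0.69 CPM with sham buffer. With 3 to 14 counts per library it was removed by the low-count filter and not tested. Markers of neurons and Schwann cells summed to 120 to 149 CPM with CB-100 and 61.6 to 71.9 CPM with sham buffer, without overlap. In edgeR 1 of 7 tested markers was called (S100b, higher), with 7 estimates above 0 and 4 at an unadjusted p under 0.05. DESeq2 called 3 higher and limma voom 2. Of the 11 markers, 4 were not tested, and Th was at 0 in every library. Their part in the Nmnat2 level was not tested.

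Nmrk1 (chr19:18631950-18652428, plus strand) encodes the kinase that admits nicotinamide riboside to the same pathway. It stood at 6.80, 5.11, 4.46 and 3.54 CPM with CB-100 and at 4.48, 3.57 and 6.82 CPM with sham buffer. The ranges were nearly the same, and the log2 change was -0.00 with a 95% interval of -0.69 to 0.68 (adjusted p = 0.995 by edgeR).

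Nnmt (chr9:48591877-48605153, minus strand) encodes the methyltransferase that turns nicotinamide into methylnicotinamide with a methyl group from S-adenosylmethionine. Its level was 6.37, 8.31, 7.12 and 10.5 CPM in CB-100 replicates 1 to 4 and 1.72, 3.30 and 2.12 CPM in sham replicates 1 to 3. The lowest CB-100 library lay above the highest sham library, again sham replicate 2. These values rest on 89, 91, 99 and 226 counts with CB-100 and 33, 48 and 45 counts in sham. The log2 change was 1.78 (SE 0.30, 95% interval 1.11 to 2.45, adjusted p = 0.0268 by edgeR). Nnmt stayed called without CB-100 replicate 3 (a log2 change of 1.83, adjusted p = 0.0449 by edgeR), CB-100 replicate 4 (1.62, 0.0326) or sham replicate 2 (2.07, 0.0324). It was not called without CB-100 replicate 1 (1.88, adjusted p = 0.0506), CB-100 replicate 2 (1.77, 0.0625), sham replicate 1 (1.58, 0.0856) or sham replicate 3 (1.69, 0.128), nor in the 5 females (1.75, 0.181), nor with the skeletal muscle markers as covariate (1.83, 0.137). Markers of fibroblasts and preadipocytes, cells that can also express Nnmt, summed to 744 to 1515 CPM with CB-100 and 306 to 685 CPM with sham buffer. These ranges do not overlap, 0 of 6 markers were called in edgeR (3 at an unadjusted p under 0.05, 2 higher and 1 lower called by each of DESeq2 and limma voom), and 0 of 6 were at 0 in every library. Most of the sum was the collagens Col3a1 (665 ± 258 against 182 ± 116 CPM) and Col1a1 (345 ± 153 against 100.5 ± 58.6 CPM). Dcn, the 1 marker with an estimate below 0, went the other way. It had 671 to 1457 deposited counts with CB-100 and 1683 to 2378 in sham. The part of these cells and markers in the Nnmt result was not tested.

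Because Nampt and Nnmt act on the same substrate, their CPM were also divided within each library. The ratio of Nampt to Nnmt was 28.4, 13.0, 20.7 and 12.7 in CB-100 replicates 1 to 4 and 204, 63.9 and 178 in sham replicates 1 to 3. Each CB-100 library had a lower ratio than any sham library, which the separate values of the 2 genes already fix. The ratio is of CPM without regard to transcript length and is given to compare libraries, not genes.

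**Figure D2:**
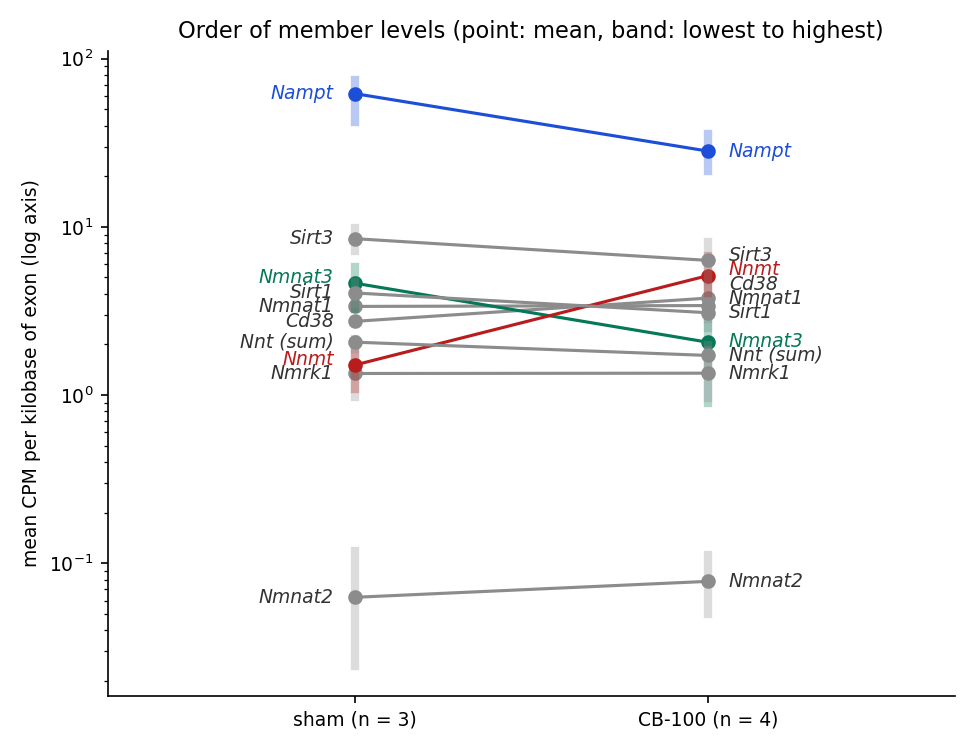
Mean level per kilobase of exon (CPM per kilobase, log axis) of each gene in sham (left, n = 3) and CB-100 (right, n = 4), with bands from the lowest to the highest library. Nampt stands at the top on both sides, while Nnmt (red) goes from 1.51 to 5.13 and Nmnat3 (green) from 4.62 to 2.06 CPM per kilobase.

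Per kilobase of exon, which allows genes to be compared, Nampt was the most abundant member in both groups, at 28.2 ± 6.02 (SD, n = 4) CPM per kilobase with CB-100 and 61.9 ± 17.7 (SD, n = 3) with sham buffer. Sirt3 came next, at 6.32 ± 1.50 with CB-100 and 8.50 ± 1.32 in sham. In sham the order then ran Nmnat3 (4.62), Sirt1 (4.04), Nmnat1 (3.36), Cd38 (2.74), Nnt (2.06, both records summed), Nnmt (1.51), Nmrk1 (1.34) and Nmnat2 (0.063). Neighbours overlapped between Nmnat3 and Sirt1, Sirt1 and Nmnat1, Nnt and Nnmt, and Nnmt and Nmrk1, so their order is not fixed. In CB-100 Nnmt took the third place (5.13), followed by Cd38 (3.77), Nmnat1 (3.40), Sirt1 (3.09), Nmnat3 (2.06), Nnt (1.72), Nmrk1 (1.35) and Nmnat2 (0.078). There the ranges of neighbours overlapped except below Nampt, below Sirt1 and below Nmrk1. The exon length is that of all annotated transcripts of a gene merged, which lowers the value of genes with long alternative exons.

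Sirt1 and Sirt3 encode deacylases that consume NAD, SIRT1 mainly in the nucleus and SIRT3 in mitochondria. Sirt1 (chr10:63319005-63381704, minus strand) stood at 15.2, 17.4, 16.4 and 16.8 CPM with CB-100 and at 25.0, 18.6 and 21.0 CPM with sham buffer. The CB-100 libraries lay close together and below the sham libraries, nearest to sham replicate 2. The log2 change was -0.39 (SE 0.15, 95% interval -0.72 to -0.06, adjusted p = 0.149 by edgeR), not called, and the gene overlaps Gm16145 on the opposite strand, so its count is uncertain. Sirt3 (chr7:140863666-140882309, minus strand) stood at 48.6, 32.5, 41.3 and 28.6 CPM with CB-100 and at 42.9, 58.7 and 50.8 CPM with sham buffer, with overlap. Its log2 change of -0.43 was not called (SE 0.20, 95% interval -0.88 to 0.03, adjusted p = 0.234 by edgeR). The deposited counts of Sirt3 were not whole in any of the 7 libraries, and Psmd13 and Ric8a overlap its exons on the opposite strand, so reads may be shared with them.

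Cd38 (chr5:43868553-43912375, plus strand) encodes a membrane enzyme that cuts NAD and is abundant on lymphocytes and activated macrophages. It stood at 11.7, 14.6, 13.4 and 19.0 CPM with CB-100 and at 10.7, 10.8 and 10.5 CPM with sham buffer. Every CB-100 library lay above the sham libraries, which differed by no more than 1.03-fold among themselves. The log2 change was 0.46 (SE 0.19, 95% interval 0.04 to 0.89, adjusted p = 0.177 by edgeR), not called. Lymphocyte markers summed to 17.1 to 23.7 CPM with CB-100 and 12.5 to 19.1 CPM with sham buffer, mostly from Ptprc, a marker of all white blood cells. Only 4 of 10 passed the filter, 0 of them were called in edgeR (2 at an unadjusted p under 0.05, 0 by DESeq2 or limma voom), and 0 of 10 were at 0 in every library. Macrophage markers summed to 97.5 to 227 CPM with CB-100 and 115 to 168 CPM with sham buffer, with 0 of 8 called (0 at an unadjusted p under 0.05, 0 by DESeq2 or limma voom). The part of these cells in the Cd38 level was not tested.

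**Figure D3:**
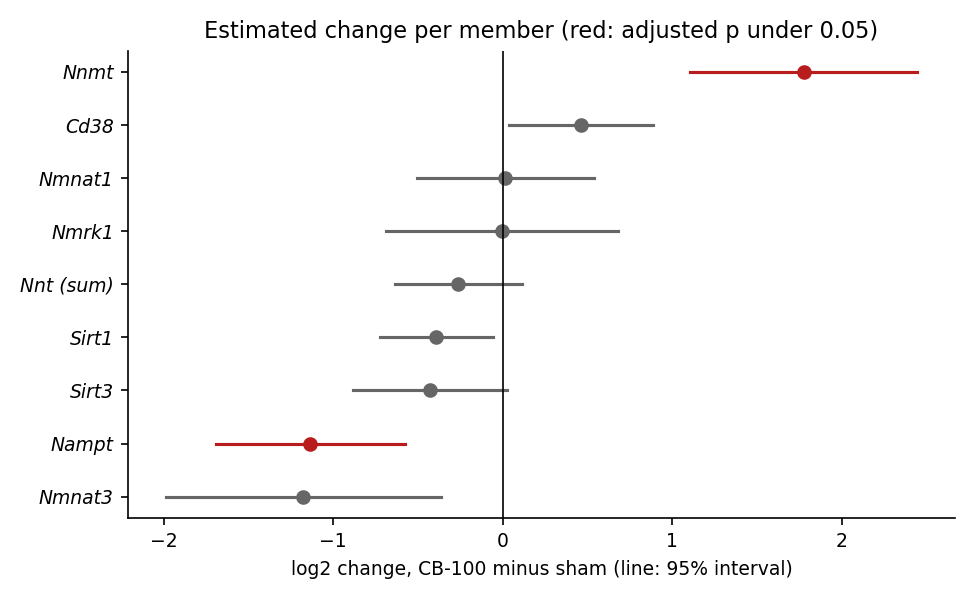
Estimated log2 change (CB-100 minus sham, horizontal axis) of the 8 members tested as 1 record each and of Nnt with its records summed, with 95% intervals from edgeR; red marks an adjusted p under 0.05. Nampt (-1.13) and Nnmt (1.78) are the called members, and the interval of Nmnat3 (-1.99 to -0.37) also lies below 0.

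Nnt, the mitochondrial transhydrogenase, was split over 2 records, ENSMUSG00000025453 (chr13:119335448-119408997) and ENSMUSG00000116207 (chr13:119335528-119408952), both on the minus strand. All 3339 exonic bases of the second record are also exonic in the first, of whose 7037 exonic bases they make up 47.4%. The first record held 136, 115.57, 20.47 and 41.44 deposited counts in CB-100 replicates 1 to 4 and 33.18, 193 and 118.28 in sham replicates 1 to 3. The second held 0, 21.43, 148.53 and 259.56 with CB-100 and 255.82, 0 and 205.72 in sham. Where 1 record was low the other was high, and in each library the 2 summed to a whole number, from 136 to 324. The second record thus carried 0% to 87.9% of the Nnt counts with CB-100 and 0% to 88.5% in sham. Tested apart, the records gave log2 changes of -0.22 (SE 0.85, adjusted p = 0.900 by edgeR) and -0.30 (SE 1.35, adjusted p = 0.914 by edgeR). Both are uncertain, since the records share exons.

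**Figure D4:**
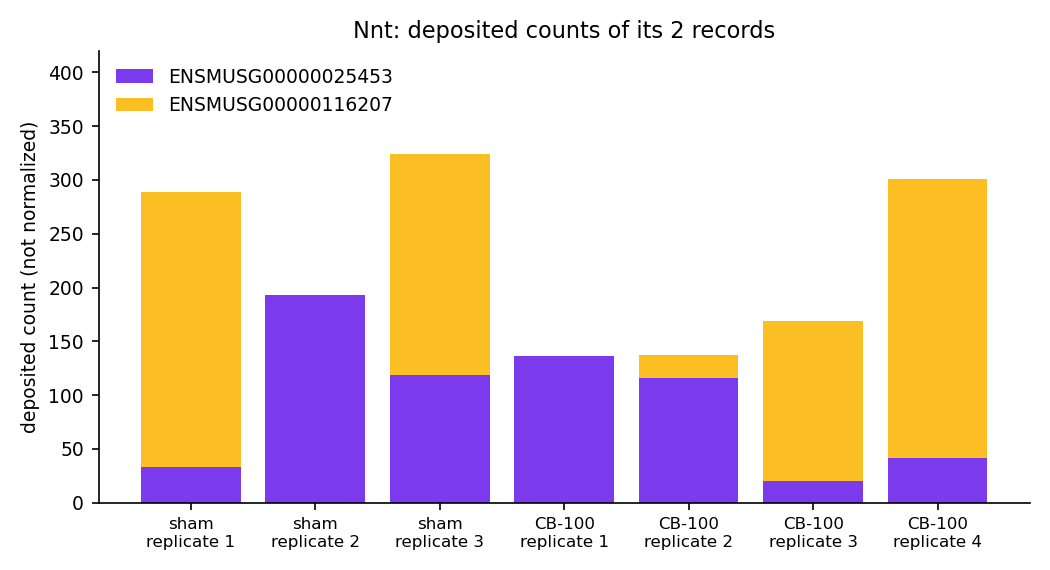
Deposited counts (vertical axis, not normalized) of the 2 Nnt records in each library, stacked. The share in the second record (yellow) runs from 0% in CB-100 replicate 1 and sham replicate 2 to 88.5% in sham replicate 1, in libraries of both groups.

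With its records added, Nnt stood at 9.73, 12.5, 12.2 and 14.0 CPM with CB-100 and at 15.0, 13.3 and 15.2 CPM with sham buffer. CB-100 replicate 4 lay within the sham range and the other CB-100 libraries below it. The log2 change was -0.26, with an SE of 0.17 in place of 0.85 and 1.35 (95% interval -0.64 to 0.11, adjusted p = 0.362 by edgeR). This sum was added after the 2 records had been seen. The reference strain C57BL/6J carries a deletion of several Nnt exons, as background, and whether NOD reads from those exons were counted was not tested.

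Across the 5 members without overlap (Nampt, Nmnat3, Nnmt, Sirt1 and Cd38), sham replicate 2 was the sham library nearest to the CB-100 group in 5 of 5. How often sham replicate 2 was the nearest among all other genes without overlap was not tested, so nothing is read from that count. Without sham replicate 2 the log2 changes of Nampt and Nnmt were -1.35 and 2.07, against -1.13 and 1.78 with all libraries. Leaving out the nearest sham library moves the sham mean away from CB-100 by construction, so nothing is read from the larger values either.

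Other genes of NAD metabolism and related processes, and 16 core clock genes, were taken from 8 lists of 98 genes, of which 88 were tested. Of these, 1 (Arntl, of the clock list) rose and 4 fell (edgeR, background 3.70%). The median log2 change over the 88, clock genes included, was -0.13, against 0.03 over all tested genes. Estimates were below 0 for 53 of 88, against 47.3% of all tested genes, and nothing particular to these lists is read from that. The counts per list below stand beside 4022 of all 16823 tested genes at an unadjusted p under 0.05 in edgeR. DESeq2 called 11.7% of all tested genes and limma voom 7.21%. The other NAD synthesis genes had 0 of 10 called (edgeR; 1 at an unadjusted p under 0.05, 1 lower by each of DESeq2 and limma voom) and a median of -0.12. Naprt, which starts synthesis from nicotinic acid, stood at 16.5 ± 2.69 CPM with CB-100 and 27.6 ± 4.33 CPM with sham buffer and missed the threshold (a log2 change of -0.74 with SE 0.17, adjusted p = 0.0512 by edgeR). It shares exons with Eef1d on its strand and is uncertain. Acmsd, which diverts tryptophan breakdown from NAD, had a log2 change of -0.78 (adjusted p = 0.307 by edgeR).

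The remaining sirtuins had 0 of 5 called (edgeR; 2 at an unadjusted p under 0.05, 1 higher by DESeq2, 0 by limma voom), 4 estimates above 0 and a median of 0.20. Sirt7, a nuclear sirtuin, stood at 18.7 ± 4.57 CPM with CB-100 and 11.1 ± 1.24 CPM with sham buffer (a log2 change of 0.75 with SE 0.21, adjusted p = 0.0760 by edgeR). It shares sequence with Mafg on its strand and is uncertain. Sirt4, a mitochondrial sirtuin, stood at 10.5 ± 1.62 against 6.95 ± 1.17 CPM (a log2 change of 0.60, adjusted p = 0.118 by edgeR). Both had CB-100 libraries above all sham libraries, opposite in direction to Sirt1.

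The PARP family, which spends NAD on attaching ADP-ribose as single units or chains, had 0 of 15 called (edgeR; 4 at an unadjusted p under 0.05, 2 in each direction, 0 by DESeq2 or limma voom) and a median of 0.13. Parp3, which overlaps Rrp9 on the opposite strand, had a log2 change of 0.57 (adjusted p = 0.113 by edgeR), and Tnks2, a tankyrase, one of -0.46 (adjusted p = 0.126 by edgeR). In the list drawn up for other NAD-cleaving enzymes 1 of 7 fell and 0 rose, with a median of -0.12 (DESeq2 called 2 lower, limma voom 1). That was Art3, listed for its ADP-ribosyltransferase family, and whether its product cuts NAD was not tested. It stood at 55.1 ± 7.68 CPM with CB-100 and 88.0 ± 9.45 CPM with sham buffer (a log2 change of -0.68 with SE 0.15, adjusted p = 0.0473 by edgeR). Cxcl10 overlaps its exons on the opposite strand, so the count is uncertain. Without single libraries Art3 kept its call only when CB-100 replicate 4 was left out (log2 changes -0.77 to -0.59, adjusted p = 0.0333 to 0.149 by edgeR).

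The list of nicotinamide clearance and the methyl cycle, which supplies the methyl group used by NNMT, had 1 of 12 lower and 0 higher, with 9 estimates below 0 and a median of -0.42 (DESeq2 called 2 lower, limma voom 1). Ahcyl1, related to the enzyme that removes S-adenosylhomocysteine, stood at 408 ± 92.9 CPM with CB-100 and 806 ± 45.3 CPM with sham buffer (a log2 change of -0.98 with SE 0.22, adjusted p = 0.0476 by edgeR). It was not called without any single library (log2 changes -1.10 to -0.87, adjusted p = 0.0564 to 0.168 by edgeR). Ahcyl1 is best known as a regulator of the inositol trisphosphate receptor and not as a methyl cycle enzyme.

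Genes of mitochondrial NADPH supply and peroxide defence, the processes NNT serves, had 1 of 14 lower and 0 higher, 12 estimates below 0 and a median of -0.37. At an unadjusted p under 0.05 there were 7 of 14, against 4022 of 16823 over all tested genes. DESeq2 called 1 higher and 4 lower (background 11.7%), limma voom 0 and 2 (7.21%). Me3, the mitochondrial NADP-dependent malic enzyme, stood at 36.9, 25.9, 39.8 and 19.8 CPM with CB-100 and at 61.9, 77.5 and 62.2 CPM with sham buffer. The groups were apart, and Me3 fell by 1.14 on the log2 scale (with SE 0.24 and adjusted p = 0.0388 by edgeR). Its counts were not whole in any library, so the level is uncertain, and it kept its call only without CB-100 replicate 4 (log2 changes -1.29 to -0.97, adjusted p = 0.0369 to 0.134 by edgeR).

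Among the shuttles that carry electrons of cytosolic NADH into mitochondria 1 of 9 fell and 0 rose, with a median of -0.37 (DESeq2 and limma voom each called 1 lower). Mdh1, the cytosolic malate dehydrogenase, stood at 129, 88.0, 119 and 119 CPM with CB-100 and at 267, 288 and 333 CPM with sham buffer. It fell by 1.38 on the log2 scale (with SE 0.18 and adjusted p = 0.0204 by edgeR) and kept its call in 5 of 7 omissions of a library, all but those of sham replicates 1 and 3 (log2 changes -1.46 to -1.28, adjusted p = 0.0212 to 0.106 by edgeR). Wdpcp overlaps it on the opposite strand, so the count is uncertain.

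Clock genes were included because Nampt is among the known targets of the clock. Of 16, 1 rose and 0 fell, with a median of -0.10 (DESeq2 called 2 higher, limma voom 1). Estimates were above 0 for 7 and below 0 for 9, with 2 higher and 1 lower at an unadjusted p under 0.05 in edgeR. Arntl, which encodes BMAL1, stood at 6.87, 20.8, 12.2 and 9.81 CPM with CB-100 and at 4.06, 1.86 and 3.10 CPM with sham buffer. The groups did not overlap, and Arntl rose by 2.03 on the log2 scale (with SE 0.42 and adjusted p = 0.0395 by edgeR), with its call kept only without CB-100 replicate 4 (log2 changes 1.67 to 2.29, adjusted p = 0.0451 to 0.149 by edgeR). Gm45355 overlaps it on the opposite strand. Without CB-100 replicate 4 edgeR also called Npas2 higher and Cry1 lower (for Cry1 a log2 change of -1.17, adjusted p = 0.0316). Arntl and Nampt thus differed from sham in opposite directions, and a difference in the time of day at which tissue was taken cannot be told apart from the injection.

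**Figure D5:**
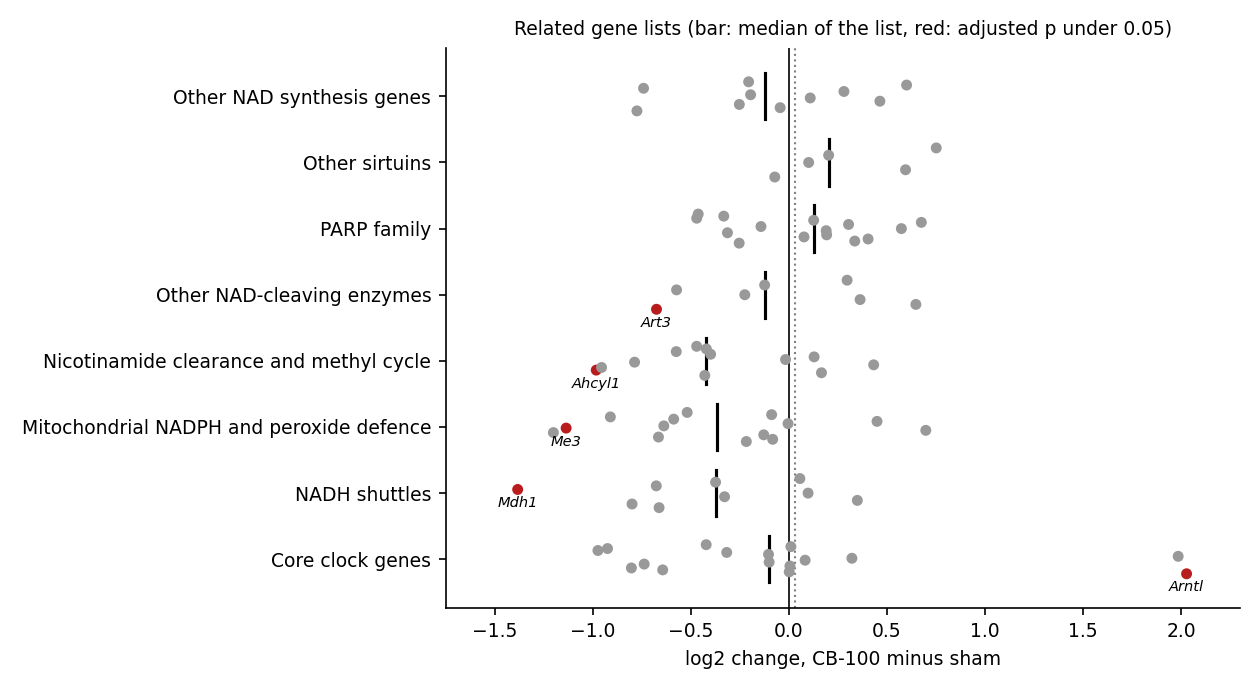
Log2 change (CB-100 minus sham, horizontal axis) of each tested gene in 8 lists of related genes, 1 point per gene, with the median of each list as a black bar and that of all tested genes (0.03) as a dotted line. The 5 called genes (red) are Art3, Ahcyl1, Me3, Mdh1 and Arntl, of which Arntl alone lies above 0.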

How the data were processed

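RNA from brown adipose tissue of 7 mice was sequenced on an Illumina NovaSeq and aligned with STAR 2.7.9a to Ensembl release 101, per the labels' protocols. Further tools listed in the submitters' processing notes, without their roles, are featureCounts 2.0.3, Salmon 1.5.2, limma and edgeR. Library kit and strandedness: not given in the sources used here. Expected counts per gene, not normalized and some with decimals, are what the authors deposited. Of 55774 lines, 287 repeats were removed. Counts were rounded (the 2 Nnt records are also printed as deposited), filtered with filterByExpr, scaled by TMM and tested with edgeR 4.0.16 (robust estimateDisp and glmQLFit, glmQLFTest) with treatment as the only term (R 4.3.3), with Benjamini-Hochberg adjustment over 16823 genes at a threshold of 0.05. SE is the log2 change over the root of F. The variation between replicates was 28.0%. The fitting code was tested on simulated data.

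CPM used TMM-scaled totals. Coordinates, exon lengths and overlaps came from GENCODE M21 (GRCm38), which held 99.5% of the gene identifiers, and promoters from RefSeq (GRCm38.p6). Groups came from the treatment label, and replicate numbers follow sample order. Each of the 7 sample titles carries a code of its own, read here as that of a mouse, which the labels do not spell out. The p-values cover sample-to-sample spread, and the number of samples limits precision. Members and lists were chosen with earlier results of these data known. Named genes are all 10 members and, per list, up to 4 called genes or the 2 with the smallest p. Marker genes named are up to 2 per list by level, with S100b, Th, Ptprc and Dcn added after their values were seen. Alternatives were DESeq2 size factors, upper quartile scaling, other filters, DESeq2 1.42.0, limma voom (limma 3.58.1), other gene sets, covariates, females only, each library left out and a threshold of 0.1.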

Additional observations from a re-analysis of the deposited data

How the results depend on the processing

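The direction of Nampt, Nnmt, Nmnat3, Sirt1, Sirt3 and Cd38 was the same under all 20 alternatives, while Nmnat1, Nmrk1 and each Nnt record, none of them called, took both signs. The 20 include the threshold of 0.1, which reuses the main fit, and the summed Nnt records, which change other genes hardly at all. Neither could turn a direction, and both are in the counts that follow. Nampt was called in 11 of 20 (log2 change -1.35 to -0.99) and Nnmt in 14 of 20 (1.58 to 2.07). The 1 member called lower became 2 with DESeq2 and with a threshold of 0.1 (Nmnat3 added) and 0 with sex as covariate (Nampt log2 change -1.10, edgeR adjusted p = 0.0686), with skeletal muscle markers as covariate and in females only. The 1 member called higher became 0 with skeletal muscle markers as covariate and in females only, where 4 and 3 members had an unadjusted p under 0.05. Without single libraries each of these counts was 0 to 1. The 622 genes called in all became 1968 with DESeq2, 1213 with limma voom, 1860 with a threshold of 0.1, 238 with sex as covariate, and 0 in edgeR with skeletal muscle markers as covariate (2612 at an unadjusted p under 0.05) or in females only (2578), and were 8 to 610 without single libraries. The 5 called genes of the related lists became 3 with upper quartile scaling, 8 with no filter, 14 with DESeq2, 13 with a threshold of 0.1, 1 with sex as covariate and 0 with skeletal muscle markers as covariate or in females only, and were 0 to 7 without single libraries. Fewer samples or fewer residual degrees of freedom enter the omissions, the female subset and the covariate fits, and beyond that the cause was not tested. Upper quartile scaling made 46.5% of all calls higher, against 38.4% with TMM. No paired analysis was possible because the animal codes are not shared between the groups. At 3 to 14 counts per library, depth allows no statement on Nmnat2.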

Other observations

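Gene symbols carried by more than 1 record were few: of 21900 protein-coding symbols in the table, 31 had several records, and 20 had counts in more than 1 of them. Nnt is among these, and its split between records differed more between libraries of the same group (0% to 88.5% in the second record over the 3 sham libraries) than the summed Nnt level did (13.3 to 15.2 CPM).

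The groups did not overlap for 24 of the 88 related genes tested, against 23.3% of all tested genes, and nothing is read from that count. Of those not named above, Idh2 and Prdx5 had the CB-100 libraries below all sham libraries with the largest estimates, as Glud1, Mat2b, Nudt12, Adk, Mtrr, Tnks and Txnrd2 did with smaller ones. Me2, Mthfd2l, Parp6, Parp10 and Parp11 went the other way, with the CB-100 libraries above all sham libraries. The values were, for Idh2, the mitochondrial NADP-dependent isocitrate dehydrogenase, 157 against 361 CPM (log2 change -1.20, SE 0.30, edgeR adjusted p = 0.0578), and, for Prdx5, a peroxiredoxin, 81.7 against 154 CPM (log2 change -0.91, edgeR adjusted p = 0.0732), whose counts were not whole and whose exons Trmt112 overlaps on the opposite strand. Npas2, a partner of BMAL1, gave a log2 change of 1.99 beside the 2.03 of Arntl, with overlapping groups and an edgeR adjusted p = 0.101. Idh2, Prdx5, Npas2, Me2 and Cry1 were chosen after their values were seen. None of them was called by edgeR with all libraries and the low-count filter. DESeq2 called Idh2 and Prdx5 lower (adjusted p = 0.00335 and 0.0150) and Npas2 and Me2 higher (adjusted p = 0.0176 and 0.0409). Its log2 change for Me2 was 0.70. Without the filter edgeR called Idh2 and Prdx5 (adjusted p = 0.0242 and 0.0313). Without CB-100 replicate 4 it called Npas2 (adjusted p = 0.0486) and, as given above, Cry1.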
